A study of Homo sapiens with 4 samples.

Results

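The AP-1 transcription factors described here are the 10 genes FOS, FOSB, FOSL1, FOSL2, JUN, JUNB, JUND, ATF3, JDP2 and BATF3, chosen by name, of 14147 genes tested. The choice of these genes and of the related lists was made with earlier results of these data known. Each was represented by the array row that carried its symbol alone, all 10 had exactly 1 such row, and all 10 passed the limit on dim rows. RNA came from HepG2 cells, an established hepatocellular carcinoma line, transfected with the lipid reagent Oligofectamine and either anti-miR-191, an antisense inhibitor of the microRNA miR-191, or a negative control anti-miR (anti-miR-NC). Cells were treated in 2 separate experiments, per the series text, which gave 2 anti-miR-191 arrays and 2 control arrays, and each experiment holds 1 of each. Both groups thus share the cell line, the transfection and the presence of an antisense oligonucleotide. The sources used here do not state the dose or the time of harvest, and no untransfected cells were analysed here. The comparison asks which AP-1 genes differ in RNA level when miR-191 is inhibited.

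AP-1 is not a single protein but a family of dimers. FOS, JUN, ATF and related proteins each carry a basic region, which contacts DNA, and a leucine zipper, through which they pair. FOS proteins need a partner, typically a JUN protein, to bind well, whereas JUN proteins can also pair among themselves. The composition of the dimer sets how strongly a target is activated. Several of these genes are immediate early genes, transcribed within minutes of a growth factor, cytokine or stress signal without new protein synthesis, and their messenger RNAs are short-lived. In liver, JUN is needed for hepatoblast survival and regeneration in mice, and ATF3 is induced by many kinds of stress.

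The sequence of the microRNA that the inhibitor is directed against is shown first, since it is the treatment's target. The labels give neither the inhibitor's sequence nor the arm it binds, and the 5p arm is printed as RefSeq lists it (GRCh38.p14, chr3:49020672-49020694, - strand), with the seed, bases 2 to 8, in capitals.
hsa-miR-191-5p: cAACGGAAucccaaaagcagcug

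The promoters of the members that rose and have a listed start, and that of JUND, whose change did not pass the test, are shown because these genes are read together below. RefSeq's table (GRCh38.p14) held 11 start sites for 8 members, with 3 for JDP2 and 2 for ATF3, and none for FOSL1 or BATF3. The 250 bases before each start were searched on both strands for TGACGT, the core of the cAMP response element bound by CREB and ATF proteins, for TGACATCA, the variant known from the JUN promoter, for TGACTCA, the classical AP-1 site, for TATAAA and for the CArG box bound by serum response factor. The letters were chosen with the member sequences in view, so the counts are descriptions. Capitals mark the matches, and of the ATF3 starts the more upstream is shown.
FOS (chr14:75278578-75278827, + strand): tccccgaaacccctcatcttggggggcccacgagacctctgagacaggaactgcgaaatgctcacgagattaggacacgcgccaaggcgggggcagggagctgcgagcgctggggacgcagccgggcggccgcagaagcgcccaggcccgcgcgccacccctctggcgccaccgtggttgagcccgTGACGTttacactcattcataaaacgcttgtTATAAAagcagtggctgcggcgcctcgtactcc
FOSB (chr19:45467746-45467995, + strand): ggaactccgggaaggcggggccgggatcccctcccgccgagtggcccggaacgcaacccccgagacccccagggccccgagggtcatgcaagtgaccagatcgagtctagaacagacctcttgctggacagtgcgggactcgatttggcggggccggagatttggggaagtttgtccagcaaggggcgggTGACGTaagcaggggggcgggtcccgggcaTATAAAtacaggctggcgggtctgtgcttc
FOSL2 (chr2:28392608-28392857, + strand): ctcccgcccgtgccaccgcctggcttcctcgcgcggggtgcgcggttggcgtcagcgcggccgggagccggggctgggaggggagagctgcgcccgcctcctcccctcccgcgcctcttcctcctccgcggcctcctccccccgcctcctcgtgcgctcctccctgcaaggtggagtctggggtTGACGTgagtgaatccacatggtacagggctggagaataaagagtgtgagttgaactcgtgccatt
JUN (chr1:58784048-58784297, - strand): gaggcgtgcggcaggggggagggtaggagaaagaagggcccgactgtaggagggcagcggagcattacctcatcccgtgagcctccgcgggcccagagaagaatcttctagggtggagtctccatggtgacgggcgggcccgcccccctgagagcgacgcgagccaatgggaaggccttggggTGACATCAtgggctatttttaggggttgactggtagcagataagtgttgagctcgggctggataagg
JUNB (chr19:12791236-12791485, + strand): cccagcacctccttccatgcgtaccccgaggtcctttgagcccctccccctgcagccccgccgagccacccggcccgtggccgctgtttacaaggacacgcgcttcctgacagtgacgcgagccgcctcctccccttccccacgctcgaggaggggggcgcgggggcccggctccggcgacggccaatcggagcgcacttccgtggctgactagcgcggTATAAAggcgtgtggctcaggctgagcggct
ATF3 (chr1:212565157-212565406, + strand): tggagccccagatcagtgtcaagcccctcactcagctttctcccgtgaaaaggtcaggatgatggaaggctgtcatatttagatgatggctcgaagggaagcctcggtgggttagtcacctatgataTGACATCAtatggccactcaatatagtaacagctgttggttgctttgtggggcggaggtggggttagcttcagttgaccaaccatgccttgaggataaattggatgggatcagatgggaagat
JUND (chr19:18281623-18281872, - strand): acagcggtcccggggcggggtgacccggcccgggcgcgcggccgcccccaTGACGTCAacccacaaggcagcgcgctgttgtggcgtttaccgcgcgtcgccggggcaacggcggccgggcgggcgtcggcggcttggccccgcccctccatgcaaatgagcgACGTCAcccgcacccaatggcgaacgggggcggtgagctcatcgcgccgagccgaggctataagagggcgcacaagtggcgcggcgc

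TGACGT stood in 5 of the 11 member windows, 1 each of FOS, FOSB, FOSL2, JUND and JDP2, and in 7.1% of all 35116 windows of the same length. Its first base lay 64, 60 and 66 bases before the start in FOS, FOSB and FOSL2. JUND carried it in 3 places, of which a pair overlap in 1 full palindrome TGACGTCA. TGACATCA stood in JUN, 67 bases before the start, and in the upstream ATF3 window, 123 bases before it, against 2.37% of all windows. In all, 7 of the 11 member windows had TGACGT or TGACATCA, as did 9.36% of all windows, and JUNB had neither. The median GC content was 65.6% in the member windows and 58.0% in all windows. TATAAA began 33, 30 and 31 bases before the start in FOS, FOSB and JUNB, and 230 bases before the downstream start of ATF3 (10.7% of all windows). TGACTCA and the CArG box were in 0 of the 11 windows (4.2% and 1.16% of all windows). Bases farther upstream than these windows were not searched. The absence of a match here therefore does not show that FOS or another member lacks such a site. A match of letters is not a measured site, and which of the listed starts these cells use was not measured. TGACGT occurred both in members that rose and in JUND and JDP2, which did not pass the test. TGACATCA and TATAAA were found in members that rose, but most members with a listed start had risen. Only these exact letters were searched, and a link between letters and change was not tested.

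Levels are RMA intensities on the log2 scale as deposited, and a change is the level on the anti-miR-191 array minus that on the control array of the same experiment, also in log2 units. The words rose and fell are used where limma's two-sided test, with the experiment as a block and Benjamini-Hochberg adjustment over all 14147 genes, gave an adjusted p under 0.05. A positive change in both experiments was seen for 9 of the 10 AP-1 genes, beside 36.5% of all genes. Of the 10 AP-1 genes, 7 rose and 0 fell by this test, beside 10.1% of all genes tested that rose and 3.77% that fell. The other 3 were JUND, JDP2 and BATF3. Because the members were chosen with earlier results known, the counts and medians set beside all genes are descriptions and no test of the family. At an unadjusted p under 0.05, limma had 8 AP-1 genes higher and 0 lower, beside 2704 higher and 1271 lower of all 14147 genes. The median change of the 10 was 1.51, beside 0.01 over all genes tested. It was 0.94 with the treated array of experiment 2 left out and 2.07 with that of experiment 1 left out. Without the block, limma called 5 AP-1 genes higher and 0 lower, beside 3.2% and 0.714% of all genes, and FOS and FOSL1 were the members lost. The levels did not overlap between groups for 8 members with anti-miR-191 higher (29.4% of all genes) and for 1 with it lower (23.8%).

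**Figure D1:**
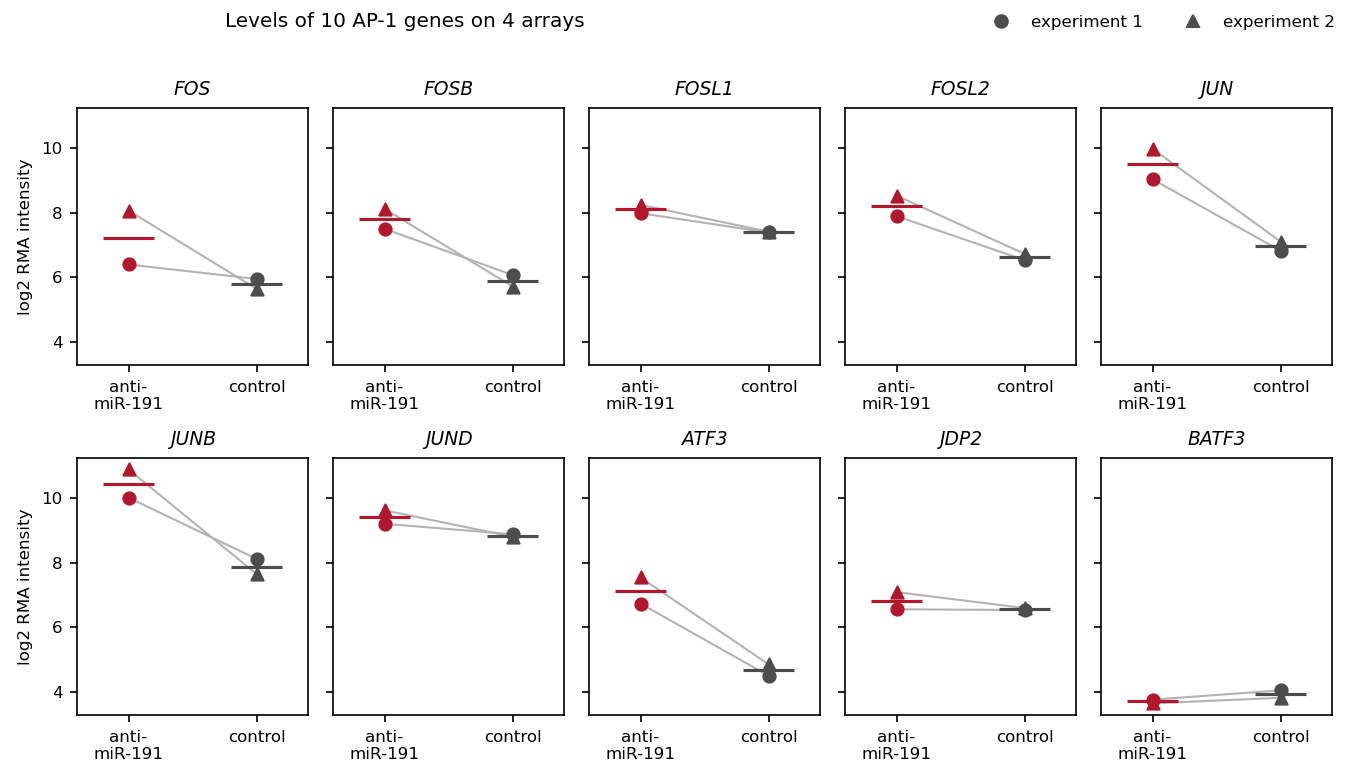
Levels of the 10 AP-1 genes on the 4 arrays. Each panel is a gene, the vertical axis is the log2 RMA intensity, circles are experiment 1 and triangles experiment 2, grey lines join the arrays of an experiment and horizontal bars are group means. The lines of JUN, JUNB and ATF3 are steep and those of BATF3 are shallow. The line of JDP2 is near flat in experiment 1 and spans 0.49 in experiment 2. Levels are not compared between panels.

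FOS and its paralogues encode proteins that need a partner, such as a JUN protein, to bind DNA well, and all 4 rose. FOS, the prototype immediate early gene, read 6.40 and 8.07 on the anti-miR-191 arrays of experiments 1 and 2, against 5.95 and 5.64 on the control arrays. The array of experiment 2 stood far above the other 3, and the anti-miR-191 array of experiment 1 lay only 0.45 above the higher control. The change was therefore 0.45 in experiment 1 and 2.43 in experiment 2, or 1.37-fold and 5.39-fold. The mean change of 1.44 ± 0.39 (SE) passed narrowly, with limma's adjusted p = 0.047. Its call ended without the block (limma's adjusted p = 0.167) and under median centring, quantile normalization, cyclic loess, robust moderation, the stricter limit on dim rows and the averaging of a gene's rows (limma's adjusted p between 0.052 and 0.108). With the treated array of experiment 2 left out, the FOS change was 0.60 (limma's adjusted p = 0.403 without the block), and with that of experiment 1 left out it was 2.28 (0.016).

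FOSB rose more evenly. FOSB encodes both the full protein and the truncated form deltaFosB by splicing, and its row does not tell them apart. It read 7.51 and 8.13 on the anti-miR-191 arrays, against 6.07 and 5.72 on the controls. Both treated arrays lay at least 1.44 above both controls. The change was 1.92 ± 0.23 (SE), 3.79-fold, with limma's adjusted p = 0.0036, and it also passed without the block (limma's adjusted p = 0.025).

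The FOS-related antigens FOSL1 and FOSL2 lack the strong activation domain of FOS and FOSB. FOSL2 read 7.90 and 8.54 on the anti-miR-191 arrays, against 6.53 and 6.73 on the controls. It rose by 1.59 ± 0.16 (SE), with limma's adjusted p = 0.0025. FOSL1, itself known as an AP-1 target in other cells, read 7.99 and 8.25 on the anti-miR-191 arrays, against 7.39 and 7.42 on the controls. The groups were separate for both genes, and the 2 FOSL1 controls lay within 0.02 of each other. FOSL1 had the smallest rise of the FOS genes, 1.64-fold or 0.71 ± 0.15 (SE), with limma's adjusted p = 0.020. Its call ended without the block and under quantile normalization (limma's adjusted p = 0.064 and 0.052).

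JUN proteins form the other side of the dimer, and JUN and JUNB, with ATF3, had the largest mean changes of the 10 genes. JUN, the strongest activator of the JUN proteins and the substrate of JNK kinases, read 9.04 and 9.99 on the anti-miR-191 arrays, against 6.83 and 7.11 on the controls. Every treated array lay at least 1.93 above every control. JUN rose 4.64-fold in experiment 1 and 7.36-fold in experiment 2, a mean change of 2.55 ± 0.19 (SE) with limma's adjusted p = 0.0011. JUNB, which can oppose JUN in proliferation, read 10.02 and 10.89 on the anti-miR-191 arrays, against 8.12 and 7.64 on the controls. Its change was 1.90 in experiment 1 and 3.25 in experiment 2, with a mean of 2.57 ± 0.28 (SE) and limma's adjusted p = 0.0031. By the mean change JUNB ranked 9 and JUN 11 among the 14147 genes, and their mean changes lay within a standard error of each other. Both also passed without the block (limma's adjusted p = 0.024 for each).

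JUND, the JUN protein that most resting cells express constantly, did not pass the test. JUND read 9.21 and 9.62 on the anti-miR-191 arrays, against 8.88 and 8.80 on the controls. Both treated arrays were above both controls, the nearest by 0.33. The change was 0.57 (95% interval 0.18 to 0.97) with limma's adjusted p = 0.065, and 0.145 without the block. The interval lies below those of JUN (2.11 to 2.98) and JUNB (1.91 to 3.23), and a difference between changes of different genes was not tested. These intervals come from the moderated fit and are not adjusted for the number of genes.

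ATF3 and JDP2 form a related pair of small proteins that can repress AP-1 sites, and only the first was called. ATF3, a stress-induced factor that pairs with JUN proteins, read 6.73 and 7.54 on the anti-miR-191 arrays, against 4.49 and 4.85 on the controls. No control came within 1.89 of a treated array. ATF3 rose 5.53-fold, by 2.47 ± 0.17 (SE), with limma's adjusted p = 0.00095 and, without the block, 0.023. JDP2, which binds JUN and is present in many unstimulated cells, read 6.56 and 7.09 on the anti-miR-191 arrays, against 6.53 and 6.59 on the controls. The treated array of experiment 1 lay between the controls, so the groups overlapped. The change of JDP2 was 0.26 (95% interval -0.13 to 0.65), with limma's adjusted p = 0.372.

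BATF3 encodes a small factor that pairs with JUN proteins and is best known from dendritic cells and lymphocytes. BATF3 read 3.76 and 3.64 on the anti-miR-191 arrays, against 4.04 and 3.81 on the controls. It was the member with lower levels in both experiments, with no overlap between the groups. The change of -0.23 (95% interval -0.57 to 0.11) had limma's adjusted p = 0.361. All 4 values were close to the limit of 3.41 for dim rows, and the deposited table gives no detection call, so BATF3 is not shown to be above background.

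The members did not move alike between the experiments. For all 10 the change in experiment 2 was the higher, beside 51.3% of all genes tested. Among the 1428 genes that rose, that share was 68.4%, and among the AP-1 genes that rose it was 7 of 7. The median change of the 10 was 0.98 in experiment 1 and 2.11 in experiment 2, while that of all genes was 0.02 and 0.01. The gap between the experiments was widest for FOS (1.98), then JUNB (1.35) and FOSB (0.97), and narrowest for BATF3 (0.11) and FOSL1 (0.23). On the anti-miR-191 arrays 9 of the 10 genes read higher in experiment 2, all but BATF3, with a median distance between experiments of 0.63, beside 0.16 over all genes. On the control arrays 5 of the 10 read higher in experiment 2, with a median distance of 0.26, beside 0.20 over all genes. With 1 array of each group per experiment, a difference between experiments cannot be tested.

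**Figure D2:**
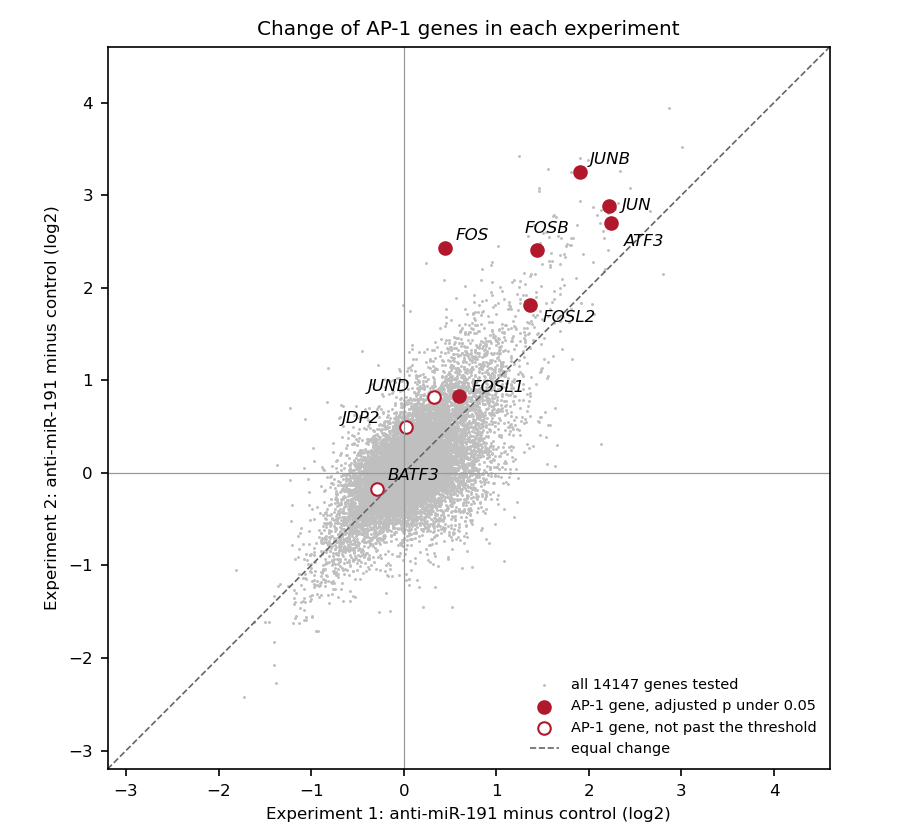
Change of each gene in experiment 1 (horizontal) and experiment 2 (vertical), in log2 units, as the anti-miR-191 level minus the control level. Grey points are all 14147 genes tested, filled red points are the 7 AP-1 genes that passed the test, open red points the 3 that did not, and the dashed line marks equal change. All 10 AP-1 genes lie above the line, FOS farthest.

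Liver markers also differed between the experiments. Of 8 hepatocyte genes tested, 0 rose and 1 fell, beside 10.1% and 3.77% of all genes, and their median change was 0.02 in experiment 1, against -0.91 in experiment 2. Averaged, these 8 genes read 9.74 and 9.28 after anti-miR-191 in experiments 1 and 2, against 9.83 and 10.05 in the controls. AFP, the fetal liver protein that marks these cells, moved by 0.16 in experiment 1 and by -1.24 in experiment 2 without passing the test. TTR, the thyroxine carrier transthyretin, fell by 1.04 ± 0.14 (SE), with limma's adjusted p = 0.0057. Of 11 markers of other cell types on the array, 9 were tested and 0 rose or fell by limma's test. The mean level of the 11 lay between 4.29 and 4.33 on all 4 arrays. Single markers averaged from 2.52 to 9.56 in the anti-miR-191 group and from 2.62 to 9.24 in controls. The upper end was LYZ in both groups, and the next was KRT14 (5.38 after anti-miR-191 and 5.39 in controls). The liver marker FGB averaged only 4.78 after anti-miR-191 and 5.21 in controls, so the 2 lists overlap in level. The interquartile range of all rows was wider after anti-miR-191 (3.38 and 3.43) than in controls (3.18 and 3.24). After quantile normalization, which gives all arrays the same distribution, the median change of the AP-1 genes was 1.42, beside -0.02 over all genes. Limma then called 5 AP-1 genes higher, beside 896 of 14142 genes. Beyond this refit, the part of these differences in the AP-1 changes was not tested. In bulk RNA, more cells expressing a gene and more RNA per cell cannot be told apart.

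Across the 4 arrays, with each gene centred on its own mean, JUN and ATF3 had the most similar patterns of the 10, at a Euclidean distance of 0.14 log2 units. FOSL1 and JUND were the next closest pair (0.19), with small positive changes in both experiments. BATF3 was farthest from JUN (2.90). Of genes outside the family, the nearest to ATF3 were TNFAIP3, an inhibitor of NF-kB (0.08), PIP5K1A, a phosphoinositide kinase (0.16), and ADM, the peptide hormone adrenomedullin (0.24). The nearest to JUN were TNFAIP3 (0.20), ADM (0.22) and CLIP4 (0.24). CLIP4 read 2.95 and 3.15 on the controls, under the limit for dim rows, and entered the test through its treated arrays. FOS had more distant neighbours, GPR75 (0.25), CDC14A (0.42) and HEY1 (0.42). All 3 were picked for their likeness to FOS on these arrays, so their uneven response follows from the choice. In the order of the experiments, the change was 0.44 and then 2.08 for GPR75. It was 0.95 and then 2.28 for CDC14A, and 0.57 and then 1.89 for HEY1. With 4 arrays such likeness is a description and carries no test.

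Some AP-1 genes lie side by side. No protein-coding gene lies between FOS and JDP2 on chromosome 14 in RefSeq's annotation, yet FOS rose by 1.44 while the change of JDP2 was 0.26. BATF, a relative of BATF3, adjoins JDP2 on its other side and had a change of 0.45 ± 0.18 (SE) with limma's adjusted p = 0.155. On chromosome 1, ATF3 and BATF3 are separated by 1 protein-coding gene, GARIN4, and had changes of 2.47 and -0.23. The difference within these pairs was not tested.

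Of 18 other bZIP factors tested, several of which can pair with AP-1 proteins, 5 rose and 0 fell by limma's test, beside 10.1% and 3.77% of all genes. The median change was 0.22. DDIT3, the stress factor CHOP, read 8.06 and 9.12 on the anti-miR-191 arrays, against 6.41 and 6.36 on the controls, a rise of 2.20 ± 0.25 (SE) with limma's adjusted p = 0.0034. MAFG, a small MAF protein that pairs with FOS and with NRF2, rose 2.75-fold, and CEBPG, a C/EBP protein without an activation domain, rose 2.53-fold. NFE2L2, which encodes the redox factor NRF2, rose 1.81-fold. ATF2, a JUN partner activated by stress kinases, rose 1.49-fold. Limma's adjusted p of these 4 lay between 0.0030 and 0.042, and NFE2L2 and ATF2 did not pass without the block (limma's adjusted p = 0.068 and 0.215). ATF7, also a JUN partner, had a change of 0.17, and ATF4 had a change of 0.18, neither past the threshold.

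Of 20 kinases and transcription factors that act on the FOS and JUN genes or proteins, 2 rose and 1 fell by limma's test, close to the 10.1% and 3.77% of all genes. The median change was 0.15. ETS2, an ETS factor that works with AP-1 at composite sites, read 8.29 and 8.47 on the anti-miR-191 arrays, against 7.16 and 7.36 on the controls. It rose 2.17-fold, by 1.12 ± 0.14 (SE), with limma's adjusted p = 0.0047. ELK3, a ternary complex factor that partners serum response factor, rose 1.84-fold (limma's adjusted p = 0.011). MAPK3, the kinase ERK1, fell by 0.77 ± 0.16 (SE) with limma's adjusted p = 0.019, and 0.066 without the block. SRF itself had a change of 0.43 ± 0.15 (SE), and the JNK kinase genes MAPK8 and MAPK9 had changes of 0.13 and -0.38, none of them past the threshold. RNA levels of kinases say nothing of their activity.

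Factors that set the turnover of AP-1 proteins and of AU-rich messenger RNAs were higher in part. Of 11 tested, 5 rose and 0 fell by limma's test with the block, beside 10.1% and 3.77% of all genes. The 5 include FBXW7, which entered the test only through its treated arrays, so its call is no support for a rise. Without the block 0 passed, beside 3.2% of all genes that were called higher. At an unadjusted p under 0.05 without the block, 6 were higher, as were 2159 of all 14147 genes. The median change was 0.67. ITCH, a ubiquitin ligase for JUN and JUNB, rose 1.88-fold, COPS5, a JUN coactivator of the COP9 signalosome, rose 1.65-fold, and COP1, a ligase subunit for JUN, rose 1.61-fold. ZFP36L1, which promotes the decay of AU-rich messenger RNAs, rose 1.59-fold. FBXW7, the ligase subunit that binds phosphorylated JUN, averaged 4.42 after anti-miR-191 and 3.21 in controls. The controls were under the limit for dim rows, which the gene's mean over the 4 arrays passed because of the treated group, and its fold and adjusted p are left out. Limma's adjusted p of ITCH, COPS5, COP1 and ZFP36L1 lay between 0.018 and 0.027. ZFP36 itself moved by 0.33 in experiment 1 and 1.24 in experiment 2 and did not pass (limma's adjusted p = 0.053).

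Genes described as AP-1 targets in other systems split. Of 33 listed, 22 were tested, 7 were left out as dim and 4 had no row of their own. Among the 22, 5 rose and 0 fell by limma's test, beside 10.1% and 3.77% of all genes, and the median change was 0.14. HBEGF, a ligand of the EGF receptor, read 7.84 and 8.39 on the anti-miR-191 arrays, against 5.56 and 5.55 on the controls. It rose by 2.56 ± 0.18 (SE) with limma's adjusted p = 0.00095. EDN1, the vasoconstrictor peptide endothelin, read 5.42 and 6.82 on the anti-miR-191 arrays, against 3.86 and 3.54 on the controls, control levels that are not shown to be above background. It passed limma's test with adjusted p = 0.0061, and the fitted change of 2.42 ± 0.34 (SE) is a difference of intensities against that low level. IL11, a cytokine of the IL-6 family, rose by 1.58, VEGFA, the angiogenic factor, by 1.55, and PLAU, the urokinase protease, by 0.59 on the log2 scale (limma's adjusted p = 0.0030, 0.0023 and 0.035). PLAU did not pass without the block (limma's adjusted p = 0.083).

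Several classical targets did not pass. CCND1, the G1 cyclin, had a change of 0.23 ± 0.15 (SE), and the urokinase receptor gene PLAUR one of 0.42 ± 0.16 (SE). HMOX1, TIMP1 and TGFB1 had changes of 0.16, -0.19 and -0.28. The collagenase MMP1 and the gelatinase MMP9 read lower on both treated arrays relative to the control of the same experiment, with mean changes of -0.32 each. MMP1 averaged 3.46 after anti-miR-191 and 3.79 in controls, and MMP9 averaged 3.997 after anti-miR-191 and 4.32 in controls, all low levels that are not shown to be above background. MMP3, MMP10, MMP13, CXCL8, CCL2, IL6 and PTGS2 were left out as dim.

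**Figure D3:**
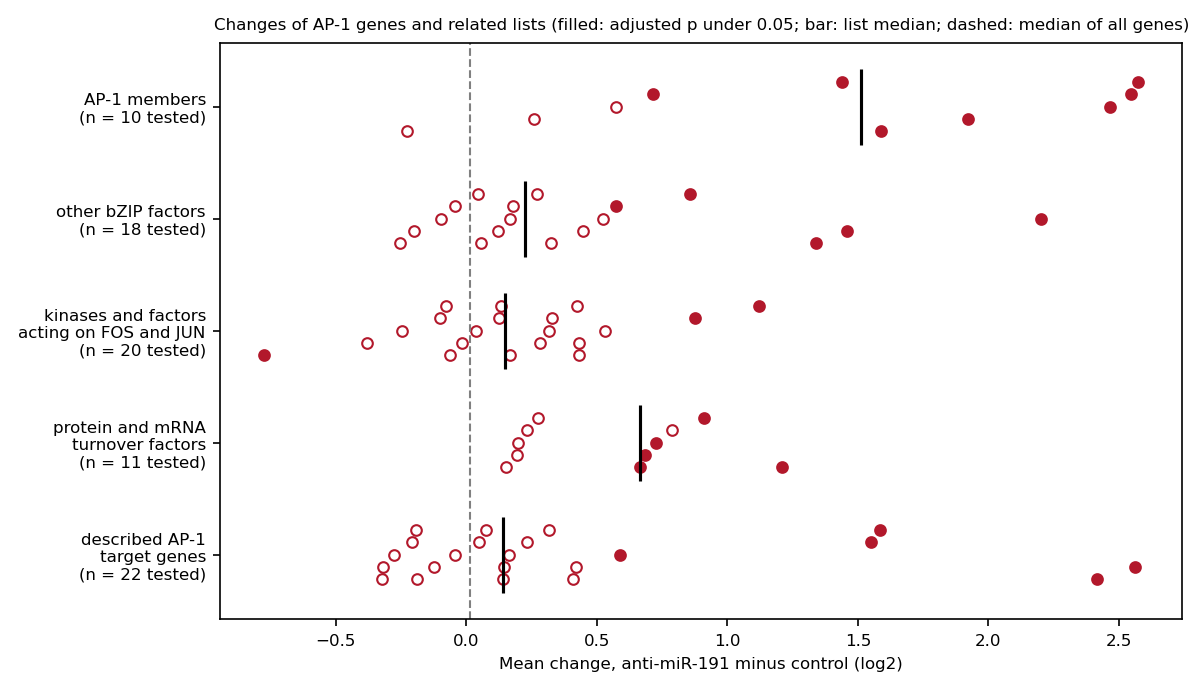
Mean change of each tested gene, in log2 units, as the anti-miR-191 level minus the control level, in the AP-1 family and in 4 related lists. Filled points passed limma's test at an adjusted p under 0.05, black bars are list medians and the dashed line is the median of all genes tested. The median of the AP-1 genes is 1.51, against 0.22 for the other bZIP factors, 0.15 for the kinases and factors, 0.67 for the turnover factors and 0.14 for the described targets.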

How the data were processed

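RNA of 4 HepG2 cultures was measured on Affymetrix arrays. The values are log2 intensities that the authors deposited as 1 table. Per the submitters' processing notes they come from RMA, run in Affymetrix Expression Console. RMA corrects background, normalizes arrays and summarizes probes, and can compress the changes of dim and very bright genes. Its version and the set of arrays normalized jointly are not stated in these sources, and the log base was inferred from the values. Precision rests on the number of arrays, 2 per group, since intensities are not counts.

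Of 33297 rows, 19460 had 1 gene symbol in GEO's platform annotation, 1754 several and 12083 none, and the last 2 kinds were not named. Symbols were updated through Entrez identifiers, of which 19429 rows matched RefSeq's gene table (GRCh38.p14). The 33.3% of rows with the lowest mean over the 4 arrays (below 3.41) did not enter the tests, and the brightest row stood for a gene. This left 14147 genes.

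Limma 3.58.1 (lmFit and eBayes, R 4.3.3) was fitted to all genes with the experiment as a block, two-sided, with Benjamini-Hochberg adjustment and a threshold of 0.05. Arrays were paired from the series text, which calls the duplicates independent studies, and from the replicate numbers in the titles. Across genes, the deviations from the group means correlated at 0.335 between arrays of the same number, which is a single value with 2 arrays per group. The block leaves 1 residual degree of freedom, to which moderation added 6.60. Each p-value sets the mean change against a spread combining the gene's own difference between the experiments with a value pooled over all genes. The pooled value has the greater weight, so the p-values do not mainly measure a gene's own spread. An exact permutation of 2 against 2 arrays cannot go below p = 0.333. A run of the fit on simulated data had to meet only a limit on the median error of the estimated change. It gives no support for the error rate of the calls. The named genes are the 10 members, up to 8 called members of each list, and the 3 genes nearest in pattern to FOS, JUN and ATF3. AFP, BATF, ATF4, ATF7, SRF, MAPK8, MAPK9, TTR, FGB, LYZ, KRT14, ZFP36 and the targets that did not pass were named after their values were seen. Members, lists and rules were chosen with earlier results of these data known. Alternatives covered the block, scaling, the limit on dim rows, moderation, row choice, a limit of 1.5-fold and single arrays left out. Figures were drawn with matplotlib 3.10.9.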

Additional observations from a re-analysis of the deposited data

How the results depend on the processing

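With the experiment as a block, between 5 and 7 of the 10 AP-1 genes were called higher and 0 lower by limma under every scaling, limit on dim rows, moderation and row choice tried. At an unadjusted p under 0.05, 8 were higher and 0 lower in each of these settings. Of all genes tested (10911 to 18417 by setting), between 2148 and 2968 were higher and between 1084 and 1635 lower at that level. FOSB, FOSL2, JUN, JUNB and ATF3 were called in all of these settings and without the replicate block. JUND, JDP2 and BATF3 were called in none of the settings in which they were tested. All genes called higher numbered 1428, and 896 after quantile normalization. Without the replicate block, limma called 452 genes higher and 101 lower (2159 and 889 at an unadjusted p under 0.05). That fit called 0 of the kinases and factors lower (1 at an unadjusted p under 0.05), 0 of the turnover factors higher (6 at an unadjusted p under 0.05) and 3 of the other bZIP factors higher. With the block, leaving out an array leaves no residual degree of freedom, so arrays were left out in limma's fit without it, where the lone array is assumed to vary like the other group. The AP-1 genes called higher then ranged from 0 to 6. They were 0 when the treated array of experiment 2, the control of experiment 1 or the control of experiment 2 was left out, with 7, 7 and 6 at an unadjusted p under 0.05, and 6 when the treated array of experiment 1 was. All genes ranged from 0 to 315 higher and from 0 to 24 lower, with 0 in the same 3 settings (1189, 1691 and 2250 higher at an unadjusted p under 0.05, and 474, 741 and 928 lower). Other bZIP factors ranged from 0 to 3, turnover factors from 0 to 1 and described targets from 0 to 4, while kinases and factors had 0 in either direction in all 4 settings (2 to 5 higher and 1 to 2 lower at an unadjusted p under 0.05). The change of JDP2 was -0.0076 with the treated array of experiment 2 left out. No scaling moved the median of all genes by more than 0.1 on the log2 scale. The fit rests on 2 experiments, so changes that differ between them, as for FOS, cannot be resolved.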
